A study of Homo sapiens with 6 samples.

Results

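The sestrins and the other proteins described here restrain mTORC1, the kinase complex through which nutrients and growth factors drive cell growth. They were defined as a list of 10 genes: the sestrins SESN1, SESN2 and SESN3, the arginine sensor gene CASTOR1, DDIT4 and its relative DDIT4L, the tuberous sclerosis genes TSC1 and TSC2, and DEPTOR and AKT1S1, whose products bind mTOR itself. Members were all probe sets annotated with exactly 1 symbol from this list, which gave 20 of 49386 probe sets and 9 of 18239 genes. The only probe set listed for CASTOR1 carries a second symbol as well, so CASTOR1 has no value of its own. Affymetrix Human Genome U219 arrays read the RNA of LNCaP cells in 2 groups, 3 arrays of cells exposed for 24 h to 40 µM urolithin A and 3 arrays of control cells. LNCaP is an established line of human prostate adenocarcinoma, and urolithin A is a metabolite that gut bacteria make from ellagitannins of the diet. All cells grew in F12 medium with 7% fetal bovine serum. The control arrays are titled untreated, while the treatment protocol names saline, and no label names what urolithin A was dissolved in. The study is of 1 cell line. Whether arrays of the same group stand for separate cultures is not given, so a p-value here covers array-to-array spread that may be technical.

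mTORC1 promotes protein synthesis and holds back autophagy when amino acids, growth factors and energy are plentiful. Amino acids act through the Rag GTPases on the lysosome: the GATOR1 complex switches them off, GATOR2 opposes GATOR1, and sestrins and CASTOR1 bind GATOR2 when leucine or arginine is scarce. Growth factors act through the TSC complex of TSC1, TSC2 and TBC1D7, which keeps the GTPase RHEB inactive. DDIT4, also called REDD1, acts on the TSC complex during hypoxia and other stress, whereas DEPTOR and AKT1S1, also called PRAS40, bind and inhibit mTOR complexes. SESN1 and SESN2 are known targets of p53, SESN2 and DDIT4 are also known targets of ATF4, and DDIT4 is known to be induced by hypoxia.

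Every deposited value is a log2 value from which the median of the 3 control arrays had been subtracted. A value of 0 is therefore the control median, so that only differences between arrays are known and levels are not. For the same reason neither the prostate markers of the line nor those of other cell types could be checked, and no member can be called abundant or near background. Probe sets of the same gene were averaged, and a gene was called changed when limma gave a Benjamini-Hochberg adjusted p under 0.05 over all 18239 genes. In these bulk samples fewer cells with a transcript and less of it per cell cannot be told apart.

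The RefSeq start regions of SESN1 and SESN2, which rose, and of DDIT4, the member that varied most, are shown because factors known to induce these genes act through short motifs. Each runs from 250 bases before to 50 bases after a transcript start in GRCh38.p14, and capitals mark any match to 5 motifs searched on both strands. SESN1 has 3 annotated starts, and the one shown was picked because it alone holds a motif match. It lies at chr6:109008939-109009238 on the minus strand. The SESN2 region lies at chr1:28259268-28259567 on the plus strand and the DDIT4 region at chr10:72273674-72273973 on the plus strand.
SESN1: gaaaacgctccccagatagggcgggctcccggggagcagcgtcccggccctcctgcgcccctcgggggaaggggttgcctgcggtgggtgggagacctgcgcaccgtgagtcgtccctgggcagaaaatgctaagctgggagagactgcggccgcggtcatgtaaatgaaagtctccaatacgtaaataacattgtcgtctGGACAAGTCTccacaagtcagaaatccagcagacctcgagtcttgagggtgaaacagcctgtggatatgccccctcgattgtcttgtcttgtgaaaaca
SESN2: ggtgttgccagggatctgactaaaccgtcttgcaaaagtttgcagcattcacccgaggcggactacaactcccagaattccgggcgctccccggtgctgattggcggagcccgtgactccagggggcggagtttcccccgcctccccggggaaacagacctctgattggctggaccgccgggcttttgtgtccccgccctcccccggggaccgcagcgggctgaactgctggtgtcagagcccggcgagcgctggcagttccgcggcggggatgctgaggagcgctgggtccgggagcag
DDIT4: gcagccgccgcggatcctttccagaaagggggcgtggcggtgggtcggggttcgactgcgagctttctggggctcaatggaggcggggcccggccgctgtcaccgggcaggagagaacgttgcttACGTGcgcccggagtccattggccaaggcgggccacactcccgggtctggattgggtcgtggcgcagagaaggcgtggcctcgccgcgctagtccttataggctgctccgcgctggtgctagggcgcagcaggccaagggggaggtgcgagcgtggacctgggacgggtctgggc
The motifs, chosen with earlier results of these data known, were the hypoxia response core ACGTG, the ATF4 response element TGATGNAA, the FOXO site GTAAACA, the steroid receptor half-site AGAACA and the p53 half-site, and none of these 5 lies within another. The capitals in SESN1 are a p53 half-site 49 to 40 bases before that start, and 6.63% of 35116 single RefSeq start regions hold such a match, a share that does not compare directly with 1 of 3 starts of a gene. The capitals in DDIT4 are a hypoxia response core 125 to 121 bases before the start, a motif held by 21.4% of all start regions. The SESN2 window holds none of the 5. Of the 11 start regions searched, of 8 members, these 2, 1 of 2 of TSC2 and that of CASTOR1 hold a match. The share of all start regions that hold any of the 5 motifs was not counted, so these matches cannot be called unusual. No region of DEPTOR, which also rose, or of AKT1S1 was searched, so nothing is known of their matches. These matches are letters in a window and were not tested as sites.

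Of the 9 measured members, 3 rose after urolithin A, namely SESN1, SESN2 and DEPTOR, and 6 did not pass. Among all 18239 genes, 4.85% were called higher, 5.31% lower and 10.2% in either direction. No member was called lower by limma, and at an unadjusted p under 0.05 there were 4 members higher and 1 lower. The share of all genes at that unadjusted threshold was not counted. Such counts, here and for the lists below, therefore have no background to be read against. For 5 members the ranges of the groups did not overlap, with urolithin A above control for SESN1, SESN2, SESN3 and DEPTOR and below it for TSC2, against 29.3% of all genes (15.6% above and 13.7% below). Of the 20 probe sets 5 were higher, 1 was lower and 14 did not pass in limma's fit of single probe sets, against 4.01% higher and 4.4% lower of all 49293 tested, or 8.41% in either direction. The median log2 change was 0.36 over the 9 members and 0.0101 over all genes.

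**Figure D1:**
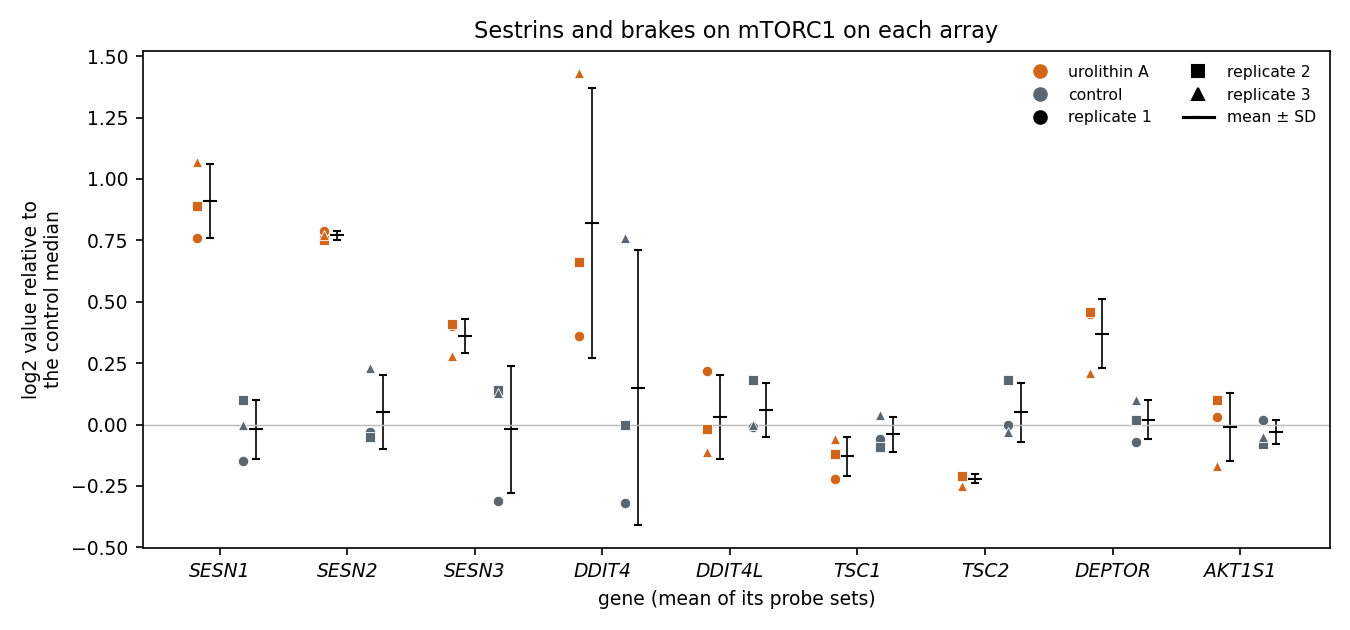
Log2 value of each measured member (vertical axis, relative to the control median) on each array, urolithin A in orange left of control in grey; marker shapes give the replicate number and black bars the mean ± SD of 3 arrays. SESN1 and SESN2 are separated from control by the widest gaps, DDIT4 has the widest spread within both groups, and DDIT4L, TSC1 and AKT1S1 overlap.

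The sestrins SESN1 and SESN2 gave the largest changes that passed. SESN1, a stress-induced gene whose product binds GATOR2, had log2 values of 0.76, 0.89 and 1.07 on the urolithin A arrays, against -0.15, 0.10 and 0.00 on the control arrays. Every urolithin A array lay above every control array. Its mean was 0.91 ± 0.15 after urolithin A and -0.02 ± 0.12 in control cells (SD, n = 3 each), a rise of 1.89-fold (log2 change 0.92, SE 0.10, limma adjusted p = 0.0011). Both probe sets of SESN1 rose, by 2.00-fold and 1.79-fold. Which of its 3 annotated starts, 1 of them with the half-site printed above, gave this RNA was not examined.

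SESN2, the best characterised leucine sensor of the family, had log2 values of 0.79, 0.75 and 0.77 on the urolithin A arrays, against -0.03, -0.05 and 0.23 on the control arrays. The urolithin A arrays were nearly equal, and the spread was in the controls, where replicate 3 was the highest. The rise was 1.64-fold (log2 change 0.72, SE 0.09, limma adjusted p = 0.0018). Both of its probe sets rose, 11718325_at by 1.77-fold and 11718324_s_at by 1.53-fold. The name of the second marks sequence shared with other transcripts. It read 0.39 in control replicate 3, and its call held in 1 of the 6 fits that lack an array, with limma adjusted p between 0.00625 and 0.0702. At gene level SESN1 and SESN2 passed in all 6 fits that lack an array and under every other alternative in which they were measured.

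SESN3, the member of the family known as a FOXO target, had log2 values of 0.40, 0.41 and 0.28 on the urolithin A arrays, against -0.31, 0.14 and 0.13 on the control arrays. The groups did not overlap, but control replicate 1 lay far below the other controls. The log2 change of 0.38 (SE 0.12) did not pass (limma adjusted p = 0.0949), nor did it without any single array or under the other alternatives. Its 2 probe sets gave log2 changes of 0.59 and 0.16, and neither passed. The first of them carries the low control, at -0.59 in control replicate 1. Without that array the gene's log2 change was 0.23.

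Whether the 3 sestrins changed by different amounts was tested on the difference between 2 members within each array. SESN1 exceeded SESN3 by 0.37, 0.48 and 0.79 on the urolithin A arrays and by 0.17, -0.04 and -0.13 on the control arrays. Their log2 changes thus differed by 0.54. For SESN2 against SESN3 the log2 changes differed by 0.34 and for SESN1 against SESN2 by 0.20. Two-sided exact permutation tests gave p = 0.1, 0.1 and 0.3, and adjusted over the 4 pairs of related members 0.2, 0.2 and 0.3. With 3 arrays against 3 the smallest p possible is 0.1, so no such difference could pass.

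**Figure D2:**
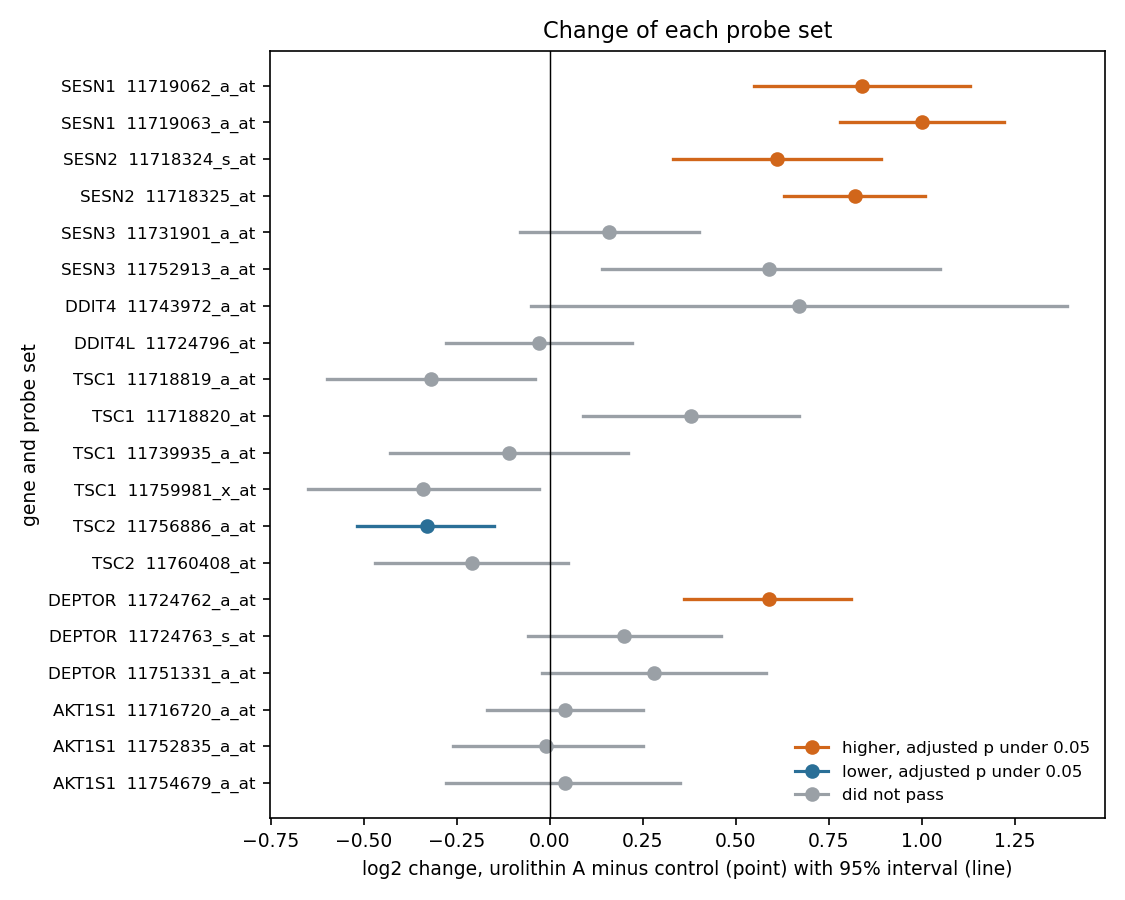
Log2 change, urolithin A minus control, of each of the 20 probe sets (points) with its 95% interval from limma (lines); orange is higher and blue lower at an adjusted p under 0.05, grey did not pass. All 4 probe sets of SESN1 and SESN2 and 1 of 3 of DEPTOR are higher, 1 of 2 of TSC2 is lower, and the 4 probe sets of TSC1 lie on both sides of 0.

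DDIT4 differed more between replicate numbers than between groups. It had log2 values of 0.36, 0.66 and 1.43 in urolithin A replicates 1, 2 and 3, against -0.32, 0.00 and 0.76 in control replicates 1, 2 and 3. The groups overlapped, since control replicate 3 lay above urolithin A replicates 1 and 2. With an SD of 0.55 after urolithin A and 0.56 in control cells, the log2 change of 0.67 (SE 0.32, 95% interval -0.05 to 1.39) did not pass (limma adjusted p = 0.242). Without single arrays the log2 change lay between 0.36, without urolithin A replicate 3, and 0.98, without control replicate 3. Taken by replicate number, urolithin A exceeded control by 0.68, 0.66 and 0.67 in replicates 1, 2 and 3. These values were read by number because DDIT4 was known to vary by it, so they are a description with no test. The labels do not say what a replicate number stands for. Over all genes, deviations of same-numbered arrays from their group means correlated at 0.0782, 0.0225 and 0.196 for replicates 1, 2 and 3.

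Within both groups the order of the arrays in DDIT4 was the reverse of that in 18S ribosomal RNA. The mean of the 3 control probe sets for 18S was 0.03, -0.22 and -0.48 in urolithin A replicates 1, 2 and 3, against 0.05, 0.01 and -0.45 in control replicates 1, 2 and 3. Replicate 3 was thus lowest in 18S and highest in DDIT4, and replicate 1 the opposite. The part of this in the DDIT4 values was not tested. Replicate 3 was also the highest array for most of the 8 listed target genes of ATF4. It was so in 7 of 8 genes after urolithin A and in 8 of 8 in control cells, against 35.7% and 33.7% of all genes. That list was written with earlier results of these data known, its genes can vary together, and the count was made for no other list. Any link of ATF4 to the order of arrays in DDIT4 was not tested. The array medians of these 8 genes were -0.12, -0.04 and 0.19 in urolithin A replicates 1, 2 and 3, against 0.00, -0.15 and 0.23 in control replicates 1, 2 and 3. Between the groups limma called none of the 8, none had an unadjusted p under 0.05, and the median log2 change was -0.01. ATF4 itself had the same order of arrays as DDIT4, at -0.16, 0.02 and 0.25 after urolithin A and -0.04, 0.00 and 0.18 in control cells. DDIT3, a stress-induced transcription factor gene, had this order too, at 0.06, 0.31 and 0.76 after urolithin A and -0.17, 0.00 and 0.30 in control cells. It was named after its values were seen, and its log2 change of 0.34 did not pass (limma adjusted p = 0.308).

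The genes closest to DDIT4 over the 6 arrays were found by the root mean square difference of log2 values after each gene's own mean was subtracted. The 5 closest were the cullin gene CUL9 at 0.20, the inositol phosphate kinase gene IP6K2 and DRAM1, which codes for a lysosomal membrane protein, both at 0.22, the ubiquitin ligase gene TRIM2 at 0.24 and the acyl-CoA synthetase gene ACSF2 at 0.25. Replicate 3 was the highest array of each group in all 5, as the choice by likeness to DDIT4 over the same arrays favours, so this adds nothing to the order seen in DDIT4. The measure also takes in the difference between the groups, so the choice favours genes with higher values after urolithin A. The changes that follow are therefore a description and no support for a rise of DDIT4. IP6K2, TRIM2 and ACSF2 rose by 1.73-fold, 1.83-fold and 1.85-fold (limma adjusted p = 0.0294, 0.0257 and 0.0294). CUL9 and DRAM1 had log2 changes of 0.47 each and, like DDIT4, did not pass (limma adjusted p = 0.248 and 0.262). By the same measure SESN1 and SESN2, which were higher after urolithin A, were the 175th and 181st of 18238 genes, both at 0.40. Their ranks too are favoured by that difference between the groups.

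**Figure D3:**
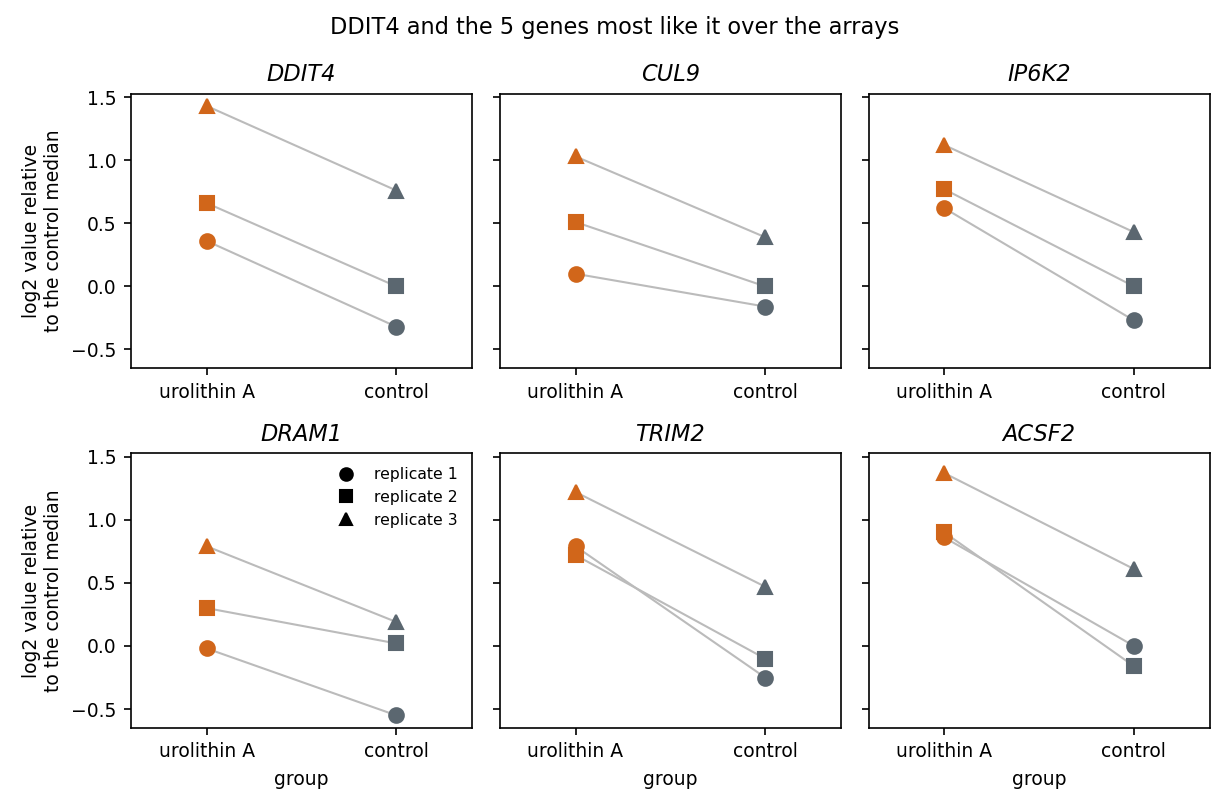
Log2 values of DDIT4 and of the 5 genes closest to it (vertical axis, relative to the control median), urolithin A in orange on the left and control in grey on the right of each panel; marker shapes give the replicate number and lines join arrays of the same number. In DDIT4 the 3 lines run parallel, at 0.68, 0.66 and 0.67, while the arrays of each group span over a log2 unit.

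DDIT4L, the relative of DDIT4 also called REDD2, was measured by a single probe set. Its log2 values were 0.22, -0.02 and -0.11 on the urolithin A arrays, against -0.01, 0.18 and 0.00 on the control arrays. The groups overlapped and did not show the replicate order of DDIT4. The log2 change was -0.03 with a 95% interval from -0.26 to 0.20 (limma adjusted p = 0.899), and its sign turned without control replicate 2 or urolithin A replicate 3. The log2 changes of DDIT4 and DDIT4L differed by 0.70 (two-sided exact permutation p = 0.3, and 0.3 adjusted over the 4 pairs), in a design whose smallest possible p is 0.1, so the test could not pass and says nothing on whether they differ.

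The TSC complex gave small values. TSC2, its GTPase-activating subunit, had log2 values of -0.21, -0.21 and -0.25 on the urolithin A arrays, against 0.00, 0.18 and -0.03 on the control arrays. All urolithin A arrays lay below all controls. The gene's log2 change of -0.27 (SE 0.08, 95% interval -0.44 to -0.10) nevertheless missed the threshold (limma adjusted p = 0.0579). In limma's fit of single probe sets, TSC2 probe set 11756886_a_at fell by 0.33 on the log2 scale (adjusted p = 0.0392). That call was lost in each of the 6 fits without an array (adjusted p from 0.0739 to 0.116). The other probe set gave -0.21, which did not pass.

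TSC1, the subunit that stabilises TSC2, had log2 values of -0.22, -0.12 and -0.06 on the urolithin A arrays, against -0.06, -0.09 and 0.04 on the control arrays. The groups overlapped, and the log2 change of -0.10 did not pass (limma adjusted p = 0.474). The probe sets behind this mean disagree. Probe set 11718820_at read 0.24, 0.22 and 0.48 on the urolithin A arrays, against -0.30, 0.00 and 0.11 on the control arrays, a log2 change of 0.38. Probe sets 11718819_a_at and 11759981_x_at gave -0.32 and -0.34, each with every urolithin A array below every control array. The fourth gave -0.11. None of the 4 passed (limma adjusted p from 0.116 to 0.714), and which transcripts each detects was not examined.

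Of the inhibitors bound to mTOR, DEPTOR rose. Its log2 values were 0.45, 0.46 and 0.21 on the urolithin A arrays, against -0.07, 0.02 and 0.10 on the control arrays. The groups did not overlap, with urolithin A replicate 3 the closest to the controls. The rise was 1.28-fold (log2 change 0.36, SE 0.09, limma adjusted p = 0.0363). It was carried by probe set 11724762_a_at, which rose 1.50-fold (limma adjusted p = 0.00892) and passed without each single array. The other 2 probe sets had log2 changes of 0.28 and 0.20 and did not pass. At gene level the call held in 4 of 12 alternatives. Among the fits that lack an array it held only without urolithin A replicate 3 (adjusted p = 0.0205), and it was lost without each of the other 5 (adjusted p from 0.0557 to 0.118). It was also lost with the median of the probe sets (adjusted p = 0.249).

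AKT1S1, whose product inhibits mTORC1 until AKT phosphorylates it, had log2 values of 0.03, 0.10 and -0.17 on the urolithin A arrays, against 0.02, -0.08 and -0.05 on the control arrays. The groups overlapped. Its log2 change was 0.02 with a 95% interval from -0.17 to 0.21 (limma adjusted p = 0.915), so a change of over 0.21 in either direction lies outside that interval. Its 3 probe sets gave log2 changes between -0.01 and 0.04.

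Other genes were read from 10 lists, of which 84 of 90 entries were measured. Beside genes of the pathway, the lists hold factors known to induce sestrins or DDIT4 and targets of ATF4 and of hypoxia-inducible factors. Of these 84, 10 were higher, 7 lower and 67 did not pass, which is 20.2% called beside 10.2% of all genes. Of the 7 lower, 3 are targets of hypoxia-inducible factors. The lists were written with earlier results of these data known, so this share is a description and no test of the pathway. The lists' median log2 change was 0.02. In the kinase complexes 1 of 8 subunit genes passed: PRR5, a subunit of mTORC2, fell 1.55-fold (log2 change -0.63, limma adjusted p = 0.00325). MTOR, the kinase gene, had a log2 change of -0.14, and RPTOR, the subunit that recruits mTORC1 substrates, had 0.05, neither of which passed (limma adjusted p = 0.299 and 0.693).

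The complexes that relay the sestrin signal were GATOR1, KICSTOR and GATOR2. In limma's fit none of 3 GATOR1 genes passed, with 1 at an unadjusted p under 0.05, and log2 changes lay between -0.16 and 0.03. None of 3 measured KICSTOR genes, which anchor GATOR1, passed, with 0 at an unadjusted p under 0.05. In GATOR2, to which sestrins bind, 1 of 5 genes passed, beside 10.2% of all genes. SEH1L, also a nuclear pore gene, fell 1.19-fold (limma adjusted p = 0.0479). That call was lost in all 6 fits without an array (adjusted p up to 0.149) and with the replicate number as a term (adjusted p = 0.0608).

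Of 13 measured genes of the Rag GTPases, their Ragulator anchor and lysosomal amino acid sensing, 5 rose, 1 fell and 7 did not pass. That is 46.2% called beside 10.2% of all genes, and a median log2 change of 0.22 beside 0.0101. The list was written with earlier results known, so this is a description. SLC38A9, the lysosomal transporter that senses arginine, rose 1.34-fold, with log2 values of 0.51, 0.40 and 0.29 on the urolithin A arrays, against -0.04, 0.07 and -0.11 on the control arrays. FLCN, the folliculin gene, rose 1.31-fold, whereas FNIP2, the gene of 1 of its partners, fell 1.52-fold (limma adjusted p = 0.0133 and 0.011). The gene of its other listed partner, FNIP1, had a log2 change of 0.03, which did not pass (limma adjusted p = 0.887). FNIP1 was named after its values were seen. For FLCN and FNIP2 the call held in every alternative in which they were measured, and for SLC38A9 it was lost only without control replicate 1 (adjusted p = 0.0501). The remaining 3 that rose, named here because they complete the count, were the GTPase gene RRAGD and the Ragulator genes LAMTOR3 and LAMTOR4, at 1.26-fold, 1.29-fold and 1.25-fold. Each of these 3 calls was lost in 4 or 5 of the 6 fits without an array (adjusted p up to 0.0841). The call of RRAGD was also lost without the probe sets named _s_ or _x_, at a log2 change of 0.21 (limma adjusted p = 0.104). Without all probe sets marked for shared sequence or several transcripts its log2 change was 0.21 as well (limma adjusted p = 0.204).

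In the list of RHEB, the remaining TSC subunit and AMPK, 3 of 11 genes rose and 8 did not pass, or 27.3% called beside 10.2% of all genes. RHEB, the direct activator of mTORC1, had a log2 change of 0.10 (limma adjusted p = 0.603). TBC1D7 of the TSC complex rose 1.22-fold (limma adjusted p = 0.0479), a call also lost with array medians subtracted (adjusted p = 0.0548) and with the replicate number as a term (adjusted p = 0.074). PRKAG2, an AMPK subunit gene, rose 1.27-fold, and STRADA, which helps activate the kinase upstream of AMPK, rose 1.24-fold. Each of these 3 calls was kept in only 1 of the 6 fits without an array (adjusted p up to 0.148). Among 13 genes of mTORC1 substrates and outputs, 1 rose, 1 fell and 11 did not pass, or 15.4% called. GRB10, an adaptor that mTORC1 phosphorylates and that damps insulin signalling, rose 1.34-fold (limma adjusted p = 0.00511). RPS6KB2, an S6 kinase gene, fell 1.35-fold (limma adjusted p = 0.0172), a call lost without urolithin A replicate 1 (adjusted p = 0.0604).

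Of 13 measured genes of factors known to induce sestrins or DDIT4, 1 rose and 12 did not pass, or 7.69% called beside 10.2% of all genes. EPAS1, a hypoxia-inducible factor gene, rose 1.23-fold (limma adjusted p = 0.0318), which was kept in 1 of the 6 fits without an array (adjusted p up to 0.104). ATF4 itself had a log2 change of -0.01 (limma adjusted p = 0.984). Of 7 measured targets of hypoxia-inducible factors, to which DDIT4 is also known to belong, 3 fell and 4 did not pass, or 42.9% called. Those that fell were NDRG1 at 2.01-fold, PDK1 at 1.88-fold and ANKRD37 at 1.27-fold. The 4 that did not pass had log2 changes from 0.0 to 0.26.

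**Figure D4:**
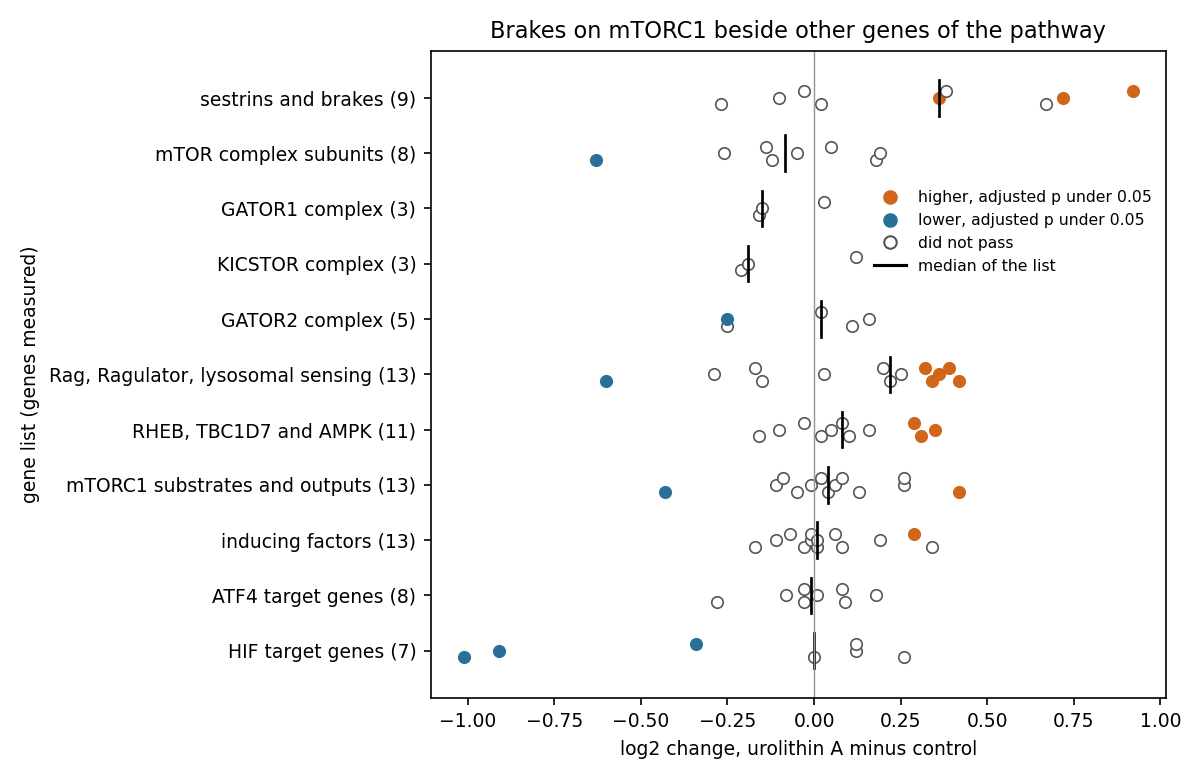
Log2 change, urolithin A minus control (horizontal axis), of each measured gene in the group of sestrins and brakes and in 10 further lists (rows, with the number of genes); orange is higher and blue lower at an adjusted p under 0.05, open circles did not pass, and the black bar is the median. The sestrins and brakes have a median of 0.36, and the list of Rag GTPases, Ragulator and lysosomal sensing has 0.22.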

How the data were processed

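Total RNA of 6 LNCaP samples was hybridised to U219 arrays. The authors deposited log2 values. The submitters' processing notes name RMA without a version, a method that corrects background, normalizes by quantiles and summarises probes. The control arrays have a median of 0 in all 49386 probe sets, so a control median was subtracted, and base 2 is taken from RMA. Depth does not apply to arrays, whose number limits the precision. Symbols came from the platform's annotation table and needed 0 updates. Of the probe sets, 45253 have 1 symbol, 1327 several and 2713 none, and 93 are controls.

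Each gene, as the mean of its single-symbol probe sets, entered a two-sided treatment model (lmFit and eBayes of limma 3.58.1, under R 4.3.3) with Benjamini-Hochberg adjustment over 18239 genes. All 49293 non-control probe sets were fitted alike. Related members were compared by exact permutation in scipy 1.17.1. Members, lists and motifs were chosen with earlier results of these data known. Named genes were all members, the 3 smallest p among called genes of each list, 5 genes fixed by name, of which 1 is not analysed here, and the 5 genes closest to DDIT4. Alternatives were a replicate block, array medians subtracted, a trended robust prior, the median of probe sets, probe sets with shared sequence left out, array weights and each array left out. A milder filter on probe set names was added after seeing the data. Scan dates were not used here.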

Additional observations from a re-analysis of the deposited data

How the results depend on the processing

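The rises of SESN1 and SESN2 kept their direction and passed under every alternative in which each was measured, with limma adjusted p up to 0.00688 and 0.0109. Of 112 values of single members under alternatives, 98 kept direction and side of the threshold, 8 lost the call, all of them DEPTOR, 1 gained it, DDIT4 with the replicate block, and 5 changed sign. The sign changes concern values that did not pass: DDIT4L, -0.12 to 0.04 without single arrays (0.03 without control replicate 2 and 0.04 without urolithin A replicate 3), AKT1S1, -0.04 to 0.1 without single arrays and -0.0032 with the median of probe sets, and TSC1 at 0.38 where only probe set 11718820_at remained. ATF4 lay between -0.11 and 0.09 without single arrays, and above 0 in 3 of these 6 fits (0.06, 0.09 and 0.0018 without control replicate 3, urolithin A replicate 1 and urolithin A replicate 2).

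Leaving out all probe sets whose names mark shared sequence or several transcripts kept 8369 genes and 4 of the members, with 1 member higher (SESN2), 509 of these genes called, and 0 listed pathway genes higher and 1 lower. Leaving out only those named _s_ or _x_, chosen after seeing the data, kept 3 members higher. Without single arrays, 1063 to 1309 genes passed against 1854, with 2 to 3 members higher and 0 lower, 4 to 5 member probe sets higher and 0 lower, and 3 to 8 listed pathway genes higher and 5 to 6 lower. The trended prior gave 5 listed pathway genes higher.

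Same-numbered arrays correlated over all genes, as deviations from their group means, at 0.0782, 0.0225 and 0.196 for replicates 1, 2 and 3, so the numbers were not taken as pairs. By this measure urolithin A replicate 2 correlated better with control replicate 1 (0.0489) than with its own number. Replicate 3 stood apart in both groups. Urolithin A replicate 3 gave -0.117 and -0.0891 with control replicates 1 and 2. Control replicate 3 gave -0.143 and -0.0679 with urolithin A replicates 1 and 2. Deviations from a group mean balance out within the group, so these correlations depend on each other. With the replicate block 1863 genes passed, 3 members were higher (SESN1, SESN2 and DDIT4, the last at adjusted p = 0.00292, while DEPTOR had 0.0645) and 0 member probe sets were lower, the TSC2 probe set among them (adjusted p = 0.0641). As the reading by number was chosen because DDIT4 varies by it, its call under the block is no independent support. Among the genes named from the lists, the block ended the calls of SEH1L and TBC1D7 and no other. The cause of these shifts was not tested.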

Other observations

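The probe set listed with both CASTOR1 and TBC1D10A, which names neither gene, had log2 values of -0.54, -0.25 and -0.19 on the urolithin A arrays, against 0.04, -0.06 and 0.00 on the control arrays. All urolithin A arrays lay below the controls, and the log2 change of -0.32 did not pass (limma adjusted p = 0.113). CASTOR2, a close relative of CASTOR1, did not pass either at a log2 change of -0.17 (limma adjusted p = 0.327), and it was named after its values were seen.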
